A study of Mus musculus with 2 samples.

Results

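Contractile-gene-high cells were the 48h-EpiLCs with the most transcripts of Acta2, Actc1 and Tagln. A score was computed for each cell of the 48h-EpiLC library that passed a filter of 1000 or more genes and no more than 10% of its unique molecular identifiers (UMIs) from mitochondrial genes: the UMIs of these 3 genes per 10000 UMIs of the cell. The highest 1% of the cells, 94 of 9400 kept cells out of 12427 barcodes, were taken as contractile-high cells, and the 6189 cells (65.8%) with a score of 0 were the comparison. The score was measured in the same library, so the levels of Acta2, Actc1 and Tagln below describe the choice and are no result.

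The library came from mouse cells of the ICR strain. Epiblast-like cells (EpiLCs), a model of the formative epiblast, had been grown from embryonic stem cells (ESCs) for 48 h on Matrigel in N2B27 with activin A, bFGF and KSR, and were taken up in droplets. Cells of a Cnot8 knockout (KO) line and of a wild-type (WT) line with the ROSA mT/mG allele, a source of tdTomato transcripts, had been combined 1 to 1 before capture, although the genotype field of the labels reads wild type. The KO line was derived from a blastocyst of mice whose gene Cnot8, for a deadenylase subunit of Ccr4-Not, had been cut with Cas9 at exon 2. Single colonies were picked to make it, so the knockout is represented by few clones, and how the WT line was made is not given in the sources used here. A second library held the same mixture as ESCs in serum/LIF on feeder cells (0 h). There was 1 library per stage. No difference below therefore has a replicate check, no test was run, and a difference between the stages cannot be told apart from one between the libraries. Intervals are exact 95% intervals that cover counting error only.

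Alpha-actins are the actins of contractile fibres, with Acta2 the smooth-muscle, Actc1 the cardiac and Acta1 the skeletal-muscle form, and transgelin (Tagln) is a small actin-binding protein of smooth muscle. Their genes are classical targets of serum response factor (SRF), which binds the CArG box. SRF is switched on by myocardin-related transcription factors (MRTFs), which leave the cytoplasm when actin filaments assemble. These genes are also transcribed in many non-muscle cells that form stress fibres.

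Promoters of genes that the comparison turns on are shown first, because the CArG box is a sequence element that several of them share. Tagln had no window in the promoter set used, so its promoter was neither shown nor searched. Each promoter shown runs from 250 bases before to 50 bases after the RefSeq start site on GRCm38.p6, 5′ to 3′ on the strand of the gene. Capitals mark CArG boxes and boxes with 1 mismatch among the 6 inner bases. The windows are chr19:34255324-34255623 (minus strand) for Acta2, chr2:114052826-114053125 (minus) for Actc1, chr8:123894726-123895025 (minus) for Acta1, chr2:156775214-156775513 (plus) for Myl9, chr10:79988350-79988649 (plus) for Cnn2, chr17:46556113-46556412 (minus) for Srf and chr9:22099003-22099302 (plus) for Cnn1.
Acta2 promoter: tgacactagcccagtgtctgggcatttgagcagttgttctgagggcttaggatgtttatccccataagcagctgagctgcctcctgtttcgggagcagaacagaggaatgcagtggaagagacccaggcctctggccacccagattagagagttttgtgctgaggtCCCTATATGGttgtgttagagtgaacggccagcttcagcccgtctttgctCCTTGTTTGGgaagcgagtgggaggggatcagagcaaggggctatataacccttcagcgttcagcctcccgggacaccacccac
Actc1 promoter: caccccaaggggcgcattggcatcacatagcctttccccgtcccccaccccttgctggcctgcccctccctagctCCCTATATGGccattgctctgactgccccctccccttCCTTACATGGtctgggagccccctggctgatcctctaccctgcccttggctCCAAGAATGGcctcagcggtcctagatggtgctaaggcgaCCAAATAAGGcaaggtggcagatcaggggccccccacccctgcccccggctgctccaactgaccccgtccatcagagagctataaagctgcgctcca
Acta1 promoter: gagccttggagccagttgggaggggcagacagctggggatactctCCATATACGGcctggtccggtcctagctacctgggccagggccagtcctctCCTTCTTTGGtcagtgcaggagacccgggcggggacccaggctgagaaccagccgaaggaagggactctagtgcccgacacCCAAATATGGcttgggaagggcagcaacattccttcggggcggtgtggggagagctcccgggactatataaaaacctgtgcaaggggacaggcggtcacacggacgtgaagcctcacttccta
Myl9 promoter: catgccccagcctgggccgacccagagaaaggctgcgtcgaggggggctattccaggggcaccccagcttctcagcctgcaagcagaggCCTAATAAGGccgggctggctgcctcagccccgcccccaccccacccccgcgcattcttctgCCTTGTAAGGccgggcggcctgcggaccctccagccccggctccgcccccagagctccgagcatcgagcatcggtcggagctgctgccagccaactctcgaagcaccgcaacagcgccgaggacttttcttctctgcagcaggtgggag
Cnn2 promoter: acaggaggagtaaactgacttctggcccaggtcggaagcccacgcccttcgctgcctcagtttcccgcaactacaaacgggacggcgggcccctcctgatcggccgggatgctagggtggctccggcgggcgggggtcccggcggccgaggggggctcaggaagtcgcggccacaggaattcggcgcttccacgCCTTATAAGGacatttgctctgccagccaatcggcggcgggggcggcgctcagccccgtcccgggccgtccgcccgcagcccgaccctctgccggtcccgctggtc
Srf promoter: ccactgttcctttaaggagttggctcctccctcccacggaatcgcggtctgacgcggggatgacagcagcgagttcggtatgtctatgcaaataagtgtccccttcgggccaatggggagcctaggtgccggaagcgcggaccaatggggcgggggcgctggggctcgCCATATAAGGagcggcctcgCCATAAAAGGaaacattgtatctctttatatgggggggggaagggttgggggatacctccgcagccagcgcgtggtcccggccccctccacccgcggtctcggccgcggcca
Cnn1 promoter: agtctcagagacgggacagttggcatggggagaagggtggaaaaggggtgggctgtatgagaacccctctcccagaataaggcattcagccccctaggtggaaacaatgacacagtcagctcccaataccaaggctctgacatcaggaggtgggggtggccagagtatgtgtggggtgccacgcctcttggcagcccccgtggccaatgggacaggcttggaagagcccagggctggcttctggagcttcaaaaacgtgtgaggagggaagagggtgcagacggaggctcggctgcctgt

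A CArG box was searched as CC, 6 bases that are each A or T, and GG, a pattern that reads the same on both strands. Its 1-mismatch form keeps CC and GG and has a C or G at 1 of the 6 inner bases. Forms with a mismatch in CC or GG were not searched. A full box stood in 1.63% of the 32851 promoter windows of the same length, and a box or its 1-mismatch form stood in 9.98%. Actc1 had a box that begins 47 bases before the start site and 3 forms with 1 mismatch, and Acta2 had only forms with 1 mismatch, at 84 and 34 bases before it. Acta1 had a box at 73 bases, Myl9 at 161, Cnn2 at 56 and Vcl, the gene of the adhesion protein vinculin, at 227. Srf itself had a pair of boxes, at 82 and 62 bases. No box or 1-mismatch form of this kind was found in these windows for Cnn1, Csrp1, Lmod1 and Tnnc2. A match describes the letters of a window and not the binding of a factor.

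**Figure D1:**
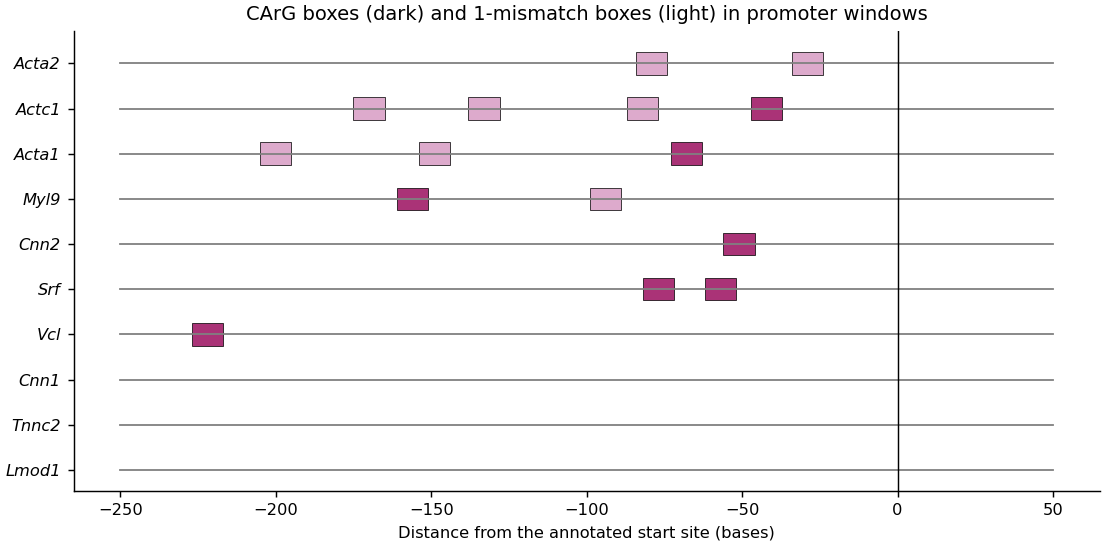
Positions of CArG boxes (dark) and of boxes with 1 mismatch (light) in promoter windows of 10 genes, in bases from the annotated start site. Mismatches were searched among the 6 inner bases only. 6 of the 10 windows held a full box, all of them before the start site, Acta2 held only 1-mismatch forms, and the windows of Cnn1, Tnnc2 and Lmod1 held none.

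The score of the contractile-high cells ranged from 7.36 to 27.1 UMIs per 10000, with a median of 10.8. It had no gap at the threshold: the last 3 cells inside were at 7.41, 7.37 and 7.36, and the first 3 outside at 7.31, 7.29 and 7.25. A cell held 2 to 99 UMIs of the 3 genes, with a median of 16, and 8 cells held at most 5. Depth and mitochondrial share were close in both groups, with medians of 15181.5 UMIs, 4115.5 genes and 3.15% mitochondrial UMIs against 14526, 3935 and 3.12% in score-0 cells. The library held 163771168 UMIs over all barcodes. Of all barcodes, 41 occurred in both libraries, and 1 of them was that of a contractile-high cell.

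Tagln led the score in 79 of the 94 cells, Acta2 in 13 and Actc1 in 1, with 1 tie. Tagln was detected in 93 cells and ranged from 0 to 22.1 UMIs per 10000 with a median of 7.69. Acta2 was detected in 76 cells, with a median of 2.49 and a highest value of 10.6. Actc1 was detected in only 37 cells, with a highest value of 5.93. All 3 genes were found in 33 cells, 2 of them in 46, and Tagln alone in 14. The 94 cells held 18.0% of all Tagln UMIs of the kept cells, 23.2% of those of Acta2 and 25.9% of those of Actc1. On GRCm38, Tagln (chr9:45929619-45936058, minus strand) overlaps Pcsk7 on the other strand, and whether counting used strand is not given in the sources used here, so its level carries that uncertainty.

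Each gene could also be read in cells that the other 2 had chosen, a level that the score then did not use. In the 94 cells highest for Acta2 and Actc1 alone, Tagln was at 501 CPM (UMIs of the gene per 1000000 UMIs of the group) against 28.1 CPM in cells with neither, a ratio of 17.8 (16.5 to 19.3). In cells chosen by Actc1 and Tagln, Acta2 was at 192 CPM against 4.44 CPM, a ratio of 43.2 (37.1 to 50.2). In cells chosen by Acta2 and Tagln, Actc1 was at 47.6 CPM against 0.738 CPM, a ratio of 64.5 (45.6 to 90.9). Each of the 3 genes was thus higher in cells that the other 2 had picked. Tagln was found in 86.2% of the cells chosen without it (median 15714.5 UMIs) against 24.9% of the cells with neither other gene (15063 UMIs).

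**Figure D2:**
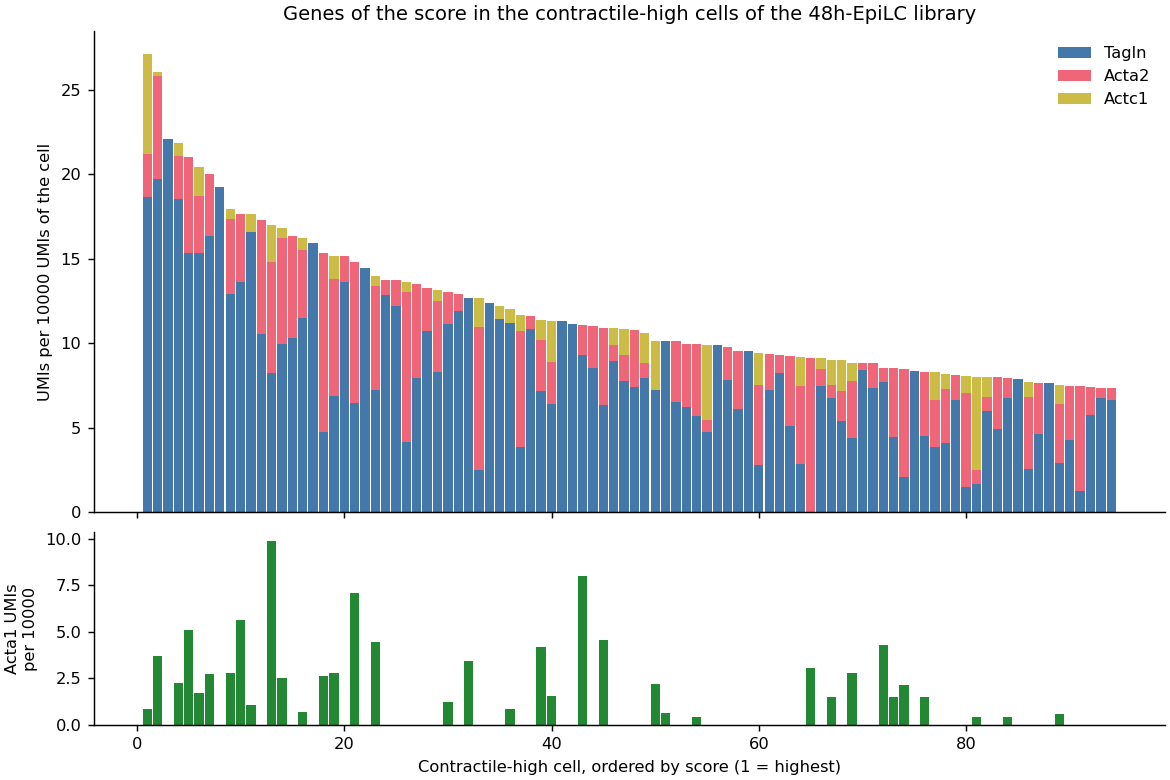
UMIs of Tagln, Acta2 and Actc1 per 10000 UMIs in each of the 94 contractile-high cells, ordered by score (top), and of Acta1, which the score did not use, in the same cells (bottom). Tagln makes up most of the bar in most cells, scores pass from 27.1 to 7.36 without a step, and the 36 cells with Acta1 occur along the whole order.

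Further genes of the contractile apparatus were higher in the contractile-high cells. Acta1, Myl9 and Cnn1 had the highest ratios of the 1224 genes that a fixed rule made eligible to be named. The log2 ratio of CPM + 1 was at least 1 for 236 of 9567 genes with a mean of at least 5 CPM (2.47%) and -1 or less for 67 genes (0.7%), and the median of all genes was 0.06. With TMM scaling the median was -0.06, a shift of -0.12, and the counts were 176 higher and 111 lower, so 61.3% of the called genes were higher in place of 77.9%. Of a list of 15 smooth-muscle contractile genes that leaves out the 3 genes of the score, 10 passed this filter. Acta1 and Lmod1 passed it only through the contractile-high cells, which forces a difference on them. Of the other 8, which were at 5 CPM or more in score-0 cells too, 7 were at least 2-fold higher in the contractile-high cells and none was 2-fold lower, with a median log2 ratio of 1.89. With Acta1 and Lmod1 these values were 9 of 10 and 2.38.

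Acta1 stood furthest apart. It was at 119 CPM (102 to 138) in contractile-high cells and at 1.87 CPM (1.60 to 2.16) in score-0 cells, a ratio of 63.6 (51.4 to 78.7). Its UMIs lay in 36 of the 94 cells, with 18 UMIs (10.1%) in the richest, and 58 cells had none. The highest value was 9.87 UMIs per 10000. Among score-0 cells 147 of 6189 had an Acta1 UMI, with a highest value of 14.5 per 10000, so the ranges overlapped and most cells of both groups were at 0.

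Myl9, the regulatory light chain of the myosin of smooth-muscle and non-muscle cells, was found in 79 contractile-high cells, at a median of 2.25 and a highest value of 9.31 UMIs per 10000, while the median score-0 cell had none and the highest had 7.47. Its summed level was 250 CPM against 20.5 CPM, a ratio of 12.2 (10.9 to 13.6). Cnn1, calponin 1, an actin-binding regulator of smooth-muscle contraction, was at 68.1 against 6.60 CPM, a ratio of 10.3 (8.29 to 12.7), and was found in 51 contractile-high cells. Csrp1, a LIM-domain protein of actin bundles, was found in 81 of the cells, at 190 against 27.3 CPM and a ratio of 6.95 (6.13 to 7.86). The groups overlapped in single cells for each of these genes, but the medians of Myl9, Csrp1 and Cnn1 were above 0 only in the contractile-high cells.

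Genes of thin-filament proteins were also higher. Tpm1, a tropomyosin that lies along actin filaments, was at 560 against 164 CPM, a ratio of 3.42 (3.19 to 3.67), with medians per cell of 5.28 and 1.39 UMIs per 10000. Its relative Tpm2 had a ratio of 2.68 (2.36 to 3.03), from 178 and 66.4 CPM. Cald1, caldesmon, had a ratio of 4.05 (3.69 to 4.44), and it overlaps Npn2 and further genes on the other strand. Lmod1, leiomodin 1, which nucleates actin filaments in smooth muscle, was at 16.0 against 1.26 CPM, a ratio of 12.8 (7.87 to 19.9), in 19 of the cells. Smtn, smoothelin, had a ratio of 2.36 (1.57 to 3.42). Des, desmin, the muscle intermediate filament protein, was at 19.4 against 13.4 CPM, and the interval of its ratio (0.964 to 2.08) included 1.

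Contractile genes under the filter did not share one pattern. Actg2, the enteric gamma-actin, had 5 UMIs in 5 contractile-high cells and Myh11, the smooth-muscle myosin heavy chain, 4 UMIs in 4 cells. These were 3.34 CPM against 0.0830 CPM for Actg2 and 2.67 against 0.135 CPM for Myh11. Synpo2 was at 2.00 against 2.37 CPM, and the interval of its ratio included 1. Mylk, the kinase of the myosin light chain, had no UMI in the 94 cells, which allows up to 2.00 CPM if the limit is set at 3 UMIs.

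Per cell, the UMIs of the contractile list without the 3 score genes had a median of 17.4 per 10000 in contractile-high cells, from 3.43 to 47.6, and of 3.54 in score-0 cells, from 0 to 42.0. Of the 94 cells, 93 were above the median of score-0 cells and 84 above their highest 5%. A contractile-high cell had a median of 7 of the 15 genes detected against 3 in a score-0 cell, and against 3 in 940 score-0 cells matched on depth.

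The difference was also seen at equal depth. After each cell had been thinned to 5000 UMIs, which left out 7 contractile-high and 172 score-0 cells, Myl9 was found in 74.7% (64.3 to 83.4) of contractile-high against 9.19% of score-0 cells. Before thinning these shares were 84.0% and 22.9%. Acta1 was found in 21.8% against 0.848% after thinning (38.3% and 2.38% before), and Cnn1 in 31.0% against 3.07% (54.3% and 9.26% before).

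The general actin cytoskeleton differed less. All 25 genes of a non-muscle actin cytoskeleton list passed the filter, with a median log2 ratio of 0.54, and 23 were above the median of all genes. At least 2-fold higher were 5 of the 25, among them Cnn2 (calponin 2), Tagln2 (transgelin 2), Flna (filamin A, which cross-links actin) and the tropomyosin Tpm4. Cnn2 had the highest ratio, 5.70 (5.10 to 6.37), with 230 against 40.4 CPM and UMIs in 85 of the cells, while Tagln2, Flna and Tpm4 had ratios between 2.32 and 2.48. Actb, cytoplasmic beta-actin, had a ratio of 1.48 (1.44 to 1.52), with medians per cell of 37.6 and 25.2 UMIs per 10000. Actg1, cytoplasmic gamma-actin, had a ratio of 0.993 (0.957 to 1.03).

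Genes of focal adhesions and stress fibres had a median log2 ratio of 0.80 over the 19 of 21 that passed the filter, and 5 were at least 2-fold higher. These were Ahnak (5.92, 4.66 to 7.44), Vcl (2.96, 2.53 to 3.45), the parvin Parva (3.44, 1.94 to 5.69), the fibronectin receptor subunit Itga5 (2.79, 1.94 to 3.90) and the kindlin Fermt2 (2.09, 1.81 to 2.41). Genes that passed the filter only through the contractile-high cells, which forces a difference on them, were not set apart in this list. This limit may bear on Parva, whose interval was the widest of the 5. The integrin subunit Itgb1 had a ratio of 1.16 (0.968 to 1.38) and paxillin (Pxn) of 1.01 (0.617 to 1.57). Vcl was at 115 against 39.0 CPM, and overlaps Ap3m1 on the other strand.

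Of the 12 genes of SRF, its cofactors and their regulators, 2 were at least 2-fold higher. Srf was at 54.7 against 21.3 CPM, a ratio of 2.58 (2.04 to 3.21), and the small GTPase Rhob had a ratio of 2.30 (1.86 to 2.83). The MRTF genes Mrtfa and Mrtfb had ratios of 1.54 (0.893 to 2.48) and 1.08 (0.616 to 1.77), and both intervals included 1. Rhoa, Rock1, Rock2 and Diaph1, which act on actin filaments, lay between 1.13 and 1.48. Of 11 measured targets of the YAP and TEAD factors, which share inputs with MRTFs, only Ccn1 was at least 2-fold higher, at a ratio of 3.19 (2.73 to 3.70), while Ccn2 had 1.10 (0.818 to 1.45). The coactivators Yap1 and Wwtr1 had 0.971 (0.767 to 1.21) and 1.37 (0.978 to 1.88).

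CArG boxes were counted in sets of these genes. Of the 236 genes at least 2-fold higher, 177 were in the promoter table and 12 of them (6.78%) had a box in the window, against 114 of the 7640 tested genes in the table (1.49%). Of the 67 genes 2-fold lower, 52 were in the table and 0 had one. On the lists, 4 of 22 cytoskeleton promoters (Actg1, Cnn2, Lima1 and Myl6) and 4 of 18 adhesion promoters (Fermt2, Fhl1, Fhl2 and Vcl) held a box. The other 102 of the 114 tested genes with a box were not 2-fold higher. Acta1, Myl9, Cnn2, Vcl, Srf and Fermt2 held a box and were at least 2-fold higher, while Actg1 held a box at a ratio of 0.993 and Cnn1 held none at a ratio of 10.3.

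Among the genes named by a fixed rule, the 20 highest of 1224 eligible genes, 6 were contractile genes (Acta1, Myl9, Cnn1, Csrp1, Cald1 and Tpm1). Tnnc2, troponin C of fast skeletal muscle, was at 50.1 against 5.01 CPM, a ratio of 9.99 (7.73 to 12.8), in 41 of the cells, and overlaps Ube2c on the other strand. The adhesion and membrane genes Ahnak, Lpp, Anxa6 and S100a6 were among them, the last with 33.9% of its UMIs in 1 cell. Rhox6 and Rhox9, X-linked homeobox genes with near-identical relatives in their cluster, had ratios of 5.28 (4.53 to 6.13) and 4.16 (3.35 to 5.12). Sfn, 14-3-3 sigma, an epithelial p53 target, had 4.10 (3.60 to 4.66), and 16.2% of its UMIs came from 1 cell. The remaining named genes were Cnn2, Krt8, Plac8, Abracl, Plin2, which coats lipid droplets, and Ccn1. Plin2 had a ratio of 3.34, Abracl of 3.32 (2.97 to 3.70) and Plac8 of 3.51 (2.95 to 4.14).

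The levels of these genes were also read in 5 bands of the score, from score-0 to contractile-high cells. Acta1 was at 1.87 CPM in score-0 cells, 3.59 in the 2271 cells with a score above 0 up to the 90th percentile, 11.9 in the 470 cells from there to the 95th, 26.9 in the next 376 cells and 119 in the contractile-high cells. Myl9 followed the same order, at 20.5, 40.6, 91.1, 148 and 250 CPM. Srf was at 21.3, 26.9, 37.7, 43.1 and 54.7 CPM. The median depths of the 5 bands, 14526, 17916, 15720.5, 15142.5 and 15181.5 UMIs, did not follow this order. The share of cells with at least 2 Y-linked UMIs did, at 25.3%, 42.4%, 48.7%, 51.6% and 60.6%, and its part in the trend over bands was not tested.

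**Figure D3:**
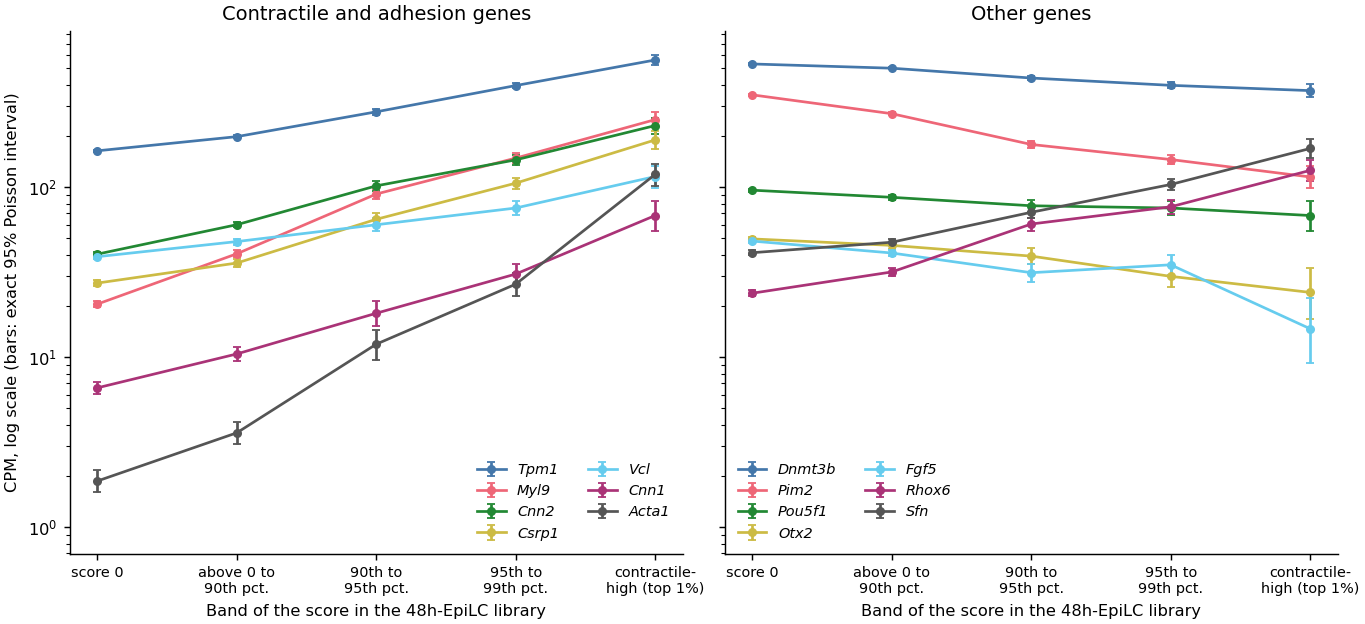
CPM on a log scale, with exact 95% Poisson intervals, in 5 bands of the score for contractile and adhesion genes (left) and other genes (right). Contractile genes are higher in each successive band, with Acta1 from 1.87 to 119 CPM and Myl9 from 20.5 to 250 CPM, while Pim2 passes from 349 to 115 CPM.

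The contractile genes were found together in single cells of the library at large. Over the 9400 kept cells, Tagln was found in 62.1% of cells with an Acta2 UMI and in 25.4% of those without. Acta1, which took no part in the score, was found with Actc1 in 53 cells: 12.9% of the 412 cells with Acta1 had Actc1, and 2.30% of the others. Tnnc2 was found in 31.1% of the cells with Acta1 and 9.82% of those without. These shares include the 94 cells that the score chose. In the other 9306 kept cells, Tagln was found in 59.1% of cells with Acta2 and 25.3% of those without. There Actc1 was found in 9.04% of cells with Acta1 and 2.12% of those without, and Tnnc2 in 28.2% and 9.68%. Deeper cells detect more of any 2 genes, so these shares describe the library and are no measure of linkage. Within the 94 cells, 52.8% of the 36 cells with Acta1 had Actc1 against 31.0% of the other 58, and 66.7% had Cnn1 against 46.6%.

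On genes other than the 3 of the score, the contractile-high cells lay together only in part. Among the 15 nearest neighbours of a contractile-high cell, in 30 principal components, 11.8% (10.1 to 13.6) were contractile-high cells. Their share among all other kept cells was 0.989%, and neighbours of other cells were not examined. The interval treats neighbours as independent, which they are not, so it is too narrow. Of the 94 cells, 64 had at least 1 contractile-high neighbour, 30 had none and 6 had 5 or more. The 6 cells with 5 or more had Acta1 at 514 CPM and a median score of 15.1, and the 30 cells without one had Acta1 at 39.7 CPM and a median score of 9.34. When every gene of the contractile, cytoskeleton and adhesion lists was also left out, the share was 6.52%.

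Markers of muscle and other cell types were checked against the name. The muscle regulators Myocd, Nkx2-5, Tbx5, Myod1, Myog and Myf5 had no UMI in the 94 cells, each of which allows up to 2.00 CPM (3 UMIs over the group). The cardiac genes Tnnt2 and Myl7 had 2 UMIs each and the cardiac and endoderm factor Gata4 had 1. Myl2 and Myl3, cardiac myosin light chains like Myl7, were higher on few UMIs, both under the filter. Myl2 had 7 UMIs in 2 cells, a ratio of 15.02 (5.57 to 34.9). Myl3 had 5 UMIs in 5 cells, a ratio of 18.9 (5.46 to 53.4). Of the skeletal-muscle list, Pax3 and Ckm had 2 UMIs each and Myf6 had 1. Acta1 and Tnnc2, the skeletal-muscle forms with ratios of 63.6 and 9.99, were not on that list and go the other way. Only 4 of 21 sarcomere and cardiac genes passed the filter, with Tnnt1 2.31-fold higher (1.78 to 2.96). No mesoderm marker stood out: T, Mixl1 and Mesp1 had 1 UMI each, Gsc none, and the 3 measured streak genes had a median log2 ratio of -0.53. Trophoblast markers Cdx2 and Elf5 had no UMI, while Gata3 had 7 UMIs, at 4.67 against 1.15 CPM. Krt7, also a trophoblast marker, had a ratio of 3.07 (1.95 to 4.62). Without the 2 cells with 3 or more fibroblast UMIs its ratio was 1.59 (0.819 to 2.81). All 6 measured genes of a trophoblast and amnion list were above 0, with a median log2 ratio of 0.31 and 1 at least 2-fold higher. The 2 measured endoderm genes had a median of 0.65, with 1 at least 2-fold higher. The 2-cell-like list was at 2.00 against 12.0 CPM. The 94 cells are therefore called by their genes and not by a cell type.

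Epiblast markers were found in each cell as a sum, though not gene by gene. Each of the 94 cells had at least 1 UMI of Pou5f1, Sox2, Utf1, Dnmt3b, Fgf5 and Otx2 as a sum, with a median of 14.6 per 10000 against 16.6 in score-0 cells, of which 8 of 6189 had none. Pou5f1 was found in 61 of the 94 cells, Dnmt3b in 85, Otx2 in 27 and Fgf5 in 18, against 4502, 6035, 2638 and 2539 of the 6189 score-0 cells. Fibroblast markers were rare. Of the cells, 78 (83.0%) had no UMI of 8 fibroblast genes, against 87.1% of score-0 cells. Only 2 had 3 or more, 1 of them with 13 of the 15 Col1a1 UMIs of the group. Over an 18-gene fibroblast and matrix list, 3 of 5 measured genes were at least 2-fold higher (Col1a1, Thbs1 and S100a6), and 6 others, Col1a2, Col3a1, Lum, Postn, Pdgfra and S100a4, had no UMI. Genes measured only through their level in the contractile-high cells, on which a difference is forced, were not set apart among the 5. The summed level of that list was 318 against 135 CPM. Without the 2 cells, 210 genes were at least 2-fold higher and 79 lower. Acta1, Myl9, Cnn1 and Csrp1 were still beyond 2-fold there, and the log2 ratio of S100a6 was 0.79.

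Epithelial genes were measured in the same cells. Of 13 measured epithelial genes, 6 were at least 2-fold higher, with a median log2 ratio of 0.69. These were the keratins Krt8, Krt18, Krt19 and Krt7, the claudin Cldn4 and Perp. Without the 2 cells with fibroblast UMIs only 3 of the 13 were, Krt8, Krt19 and Perp, and Krt18, Krt7 and Cldn4 had log2 ratios of 0.84, 0.58 and 0.98. Krt8 was at 100 against 27.8 CPM, a ratio of 3.60 (3.03 to 4.24), but 25.3% of its UMIs were in 1 cell, and its log2 ratio was 1.04 without the 2 cells with fibroblast UMIs. It overlaps Gm36026 on the other strand. The adhesion genes Cdh1, E-cadherin, and Epcam had ratios of 1.09 (0.941 to 1.27) and 0.994 (0.919 to 1.07). Vim, vimentin, had a ratio of 1.79 (1.54 to 2.07) with 31.4% of its UMIs in 1 cell, and of 1.23 (1.02 to 1.46) without those 2 cells, and the transition factors Snai1, Snai2, Zeb1 and Zeb2 had 1 to 4 UMIs each.

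Among pluripotency genes, Fgf5 and Otx2 were 2-fold lower in the contractile-high cells. Of 11 formative genes, 0 were 2-fold higher and 2 were 2-fold lower, with a median log2 ratio of -0.49. Fgf5, a growth factor of the formative epiblast, was at 14.7 against 48.2 CPM, a ratio of 0.305 (0.191 to 0.462), and was found in 18 of the 94 cells. Otx2, a transcription factor that drives the formative state, was at 24.0 against 49.6 CPM, a ratio of 0.484 (0.339 to 0.672). Dnmt3b had 0.697 (0.640 to 0.758) and Dnmt3a 0.986 (0.886 to 1.09). The 7 core pluripotency genes had a median of -0.29, with Pou5f1 at 0.710 (0.578 to 0.862). The 8 measured naïve genes had a median of 0.48, with 0 beyond 2-fold in either direction, and Nanog was at 17.4 against 23.0 CPM. At equal depth Fgf5 was found in 8.05% (3.30 to 15.9) of contractile-high and 20.1% of score-0 cells.

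The genes named as lowest were Dusp4, Pim2, Egln3, Bnip3, Ggct, Fgf4, Slc2a3, Car2, Cyct, Hist1h2ae, Pgk1, Lef1, Dusp1, Nefl and Slc2a1. Only the first 6 of these 15 were past 2-fold, and within cells with Y-linked UMIs the intervals of 5 (Egln3, Slc2a3, Car2, Hist1h2ae and Dusp1) included 1. Dusp4, a phosphatase that is induced by ERK signalling and dampens it, had a ratio of 0.314 (0.210 to 0.452), and Fgf4, a ligand that can activate ERK, of 0.468 (0.350 to 0.612). Egln3, Bnip3, Pgk1, Slc2a1 and Slc2a3 are targets of the hypoxia response. Of 12 hypoxia and glycolysis genes, 4 were 2-fold lower and the median log2 ratio was -0.75, but within cells with Y-linked UMIs 0 were and the median was -0.22. Hist1h2ae belongs to a family of near-identical genes, so its reads are uncertain.

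The 2 mixed lines were not equally present among the contractile-high cells, as far as Y-linked transcripts show. Of the 452 kept cells with a tdTomato UMI, 81.4% had no Y-linked UMI and 35 had 2 or more, so Y-linked UMIs mark mostly cells other than those of the reporter line. At least 2 UMIs of Ddx3y, Eif2s3y, Kdm5d and Uty were found in 57 of the 94 contractile-high cells, or 60.6% (50.02 to 70.6), against 25.3% (24.3 to 26.4) of score-0 cells and 26.4% (23.6 to 29.3) of depth-matched score-0 cells. Thinned to 5000 UMIs, the shares were 14.9% (8.20 to 24.2) and 6.48%. A tdTomato UMI was found in 2 contractile-high cells (2.13%) and 5.15% of score-0 cells, and both of the 2 cells also had at least 2 Y-linked UMIs. Read the other way, contractile-high cells were 1.85% (1.39 to 2.40) of the 2977 cells with at least 2 Y-linked UMIs and no tdTomato UMI, and 0.433% (0.265 to 0.669) of the 4615 cells without a Y-linked UMI. They were 0 of the 368 cells with tdTomato and no Y-linked UMI, which allows a share of up to 0.815% if the limit is set at 3 cells (exact 95% upper bound 0.997%).

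Cnot8 itself was at 57.4 CPM in both groups, a ratio of 1.00 (0.799 to 1.24), and 0 of 11 genes on a Ccr4-Not list were beyond 2-fold. UMIs counted at the 3′ end do not read the edited exon, so this level is no check of the genotype.

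Because of this difference in lines, the comparison was repeated within the 55 contractile-high and 1559 score-0 cells with at least 2 Y-linked UMIs and no tdTomato UMI. There 201 of 9555 genes (2.1%) were at least 2-fold higher and 77 (0.806%) lower. Of the 236 and 67 genes of the comparison over all cells, 142 and 20 were among them, which is 60.2% of the higher and 29.9% of the lower. For the contractile genes the median log2 ratio was 2.11, 9 of 10 were at least 2-fold higher (1.80 and 7 of 8 without Acta1 and Lmod1), and Acta1, Myl9 and Cnn1 had ratios of 53.1 (39.5 to 72.2), 8.67 (7.51 to 9.98) and 10.3 (7.81 to 13.4). Cnn2 had 4.46 (3.88 to 5.11), Vcl 3.03 (2.52 to 3.63) and Sfn 4.01 (3.41 to 4.68). Cytoskeleton and adhesion medians were 0.56 and 0.70.

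Other values within these cells were as follows. Srf had a ratio of 1.95 (1.47 to 2.55) and Rhob of 1.56 (1.16 to 2.07) within these cells, so 0 of the 12 genes of that list were beyond 2-fold. Rhox6 had 2.66 (2.16 to 3.25) and Plac8 2.20 (1.78 to 2.69), both lower than over all cells but still beyond 2-fold. Pim2, at 0.329 (0.281 to 0.382) over all cells, was at 0.740 (0.617 to 0.879). The hypoxia list had a median of -0.22 with 0 genes 2-fold lower, and the naïve list had a median of -0.19, below 0 where it was above 0 over all cells. The formative list kept its direction, with a median of -0.36, Fgf5 at 0.338 (0.184 to 0.570) and Otx2 at 0.367 (0.224 to 0.569). Dusp4 was at 0.246 (0.152 to 0.377) and Krt8 at 4.65 (3.78 to 5.67), which was 2.09 (1.53 to 2.79) without the 2 cells with fibroblast UMIs.

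**Figure D4:**
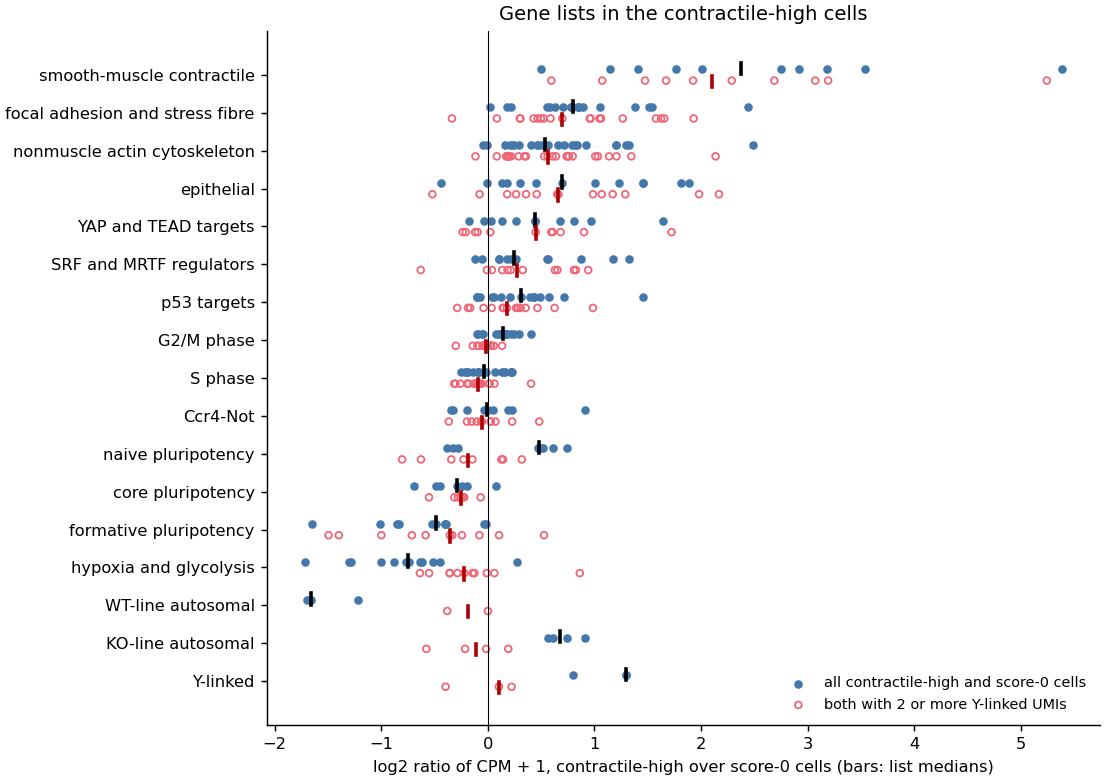
Log2 ratio of CPM + 1 in contractile-high over score-0 cells for the genes of 17 lists, over all cells (filled, black bar for the median) and within cells with at least 2 Y-linked UMIs and no tdTomato UMI (open, red bar). The contractile median is 2.38 and 2.11, or 1.89 and 1.80 without Acta1 and Lmod1, while the hypoxia median is -0.75 and -0.22 and the naïve median 0.48 and -0.19.

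The S-phase list had a median log2 ratio of -0.04 and the G2/M list of 0.14, each with 0 genes beyond 2-fold. A list of 15 p53 targets had a median of 0.31, with only Perp of that list 2-fold higher. Sfn, a p53 target with a ratio of 4.10, was not on it. The 8 genes of an apoptosis and stress list had a median of 0.36, with 0 beyond 2-fold. The integrated stress response list had -0.10 and the immediate early list -0.25, the latter with Atf3 and Klf6 2-fold higher and Ier3 2-fold lower. Nodal and transforming growth factor beta genes, which the activin in the medium can affect, had a median of 0.37, with 3 genes 2-fold higher, among them Tgfbr1 and Tgfb1, and Fst 2-fold lower. BMP and Id genes had 0.02. Autosomal genes that an earlier look at these libraries had tied to the lines also differed. Because they had been picked from these same data, they restate the difference in Y-linked UMIs and are no further result. The 4 genes that this earlier look had tied to the KO line had a median of 0.68. The 3 measured genes that it had tied to the WT line had -1.66 and were all 2-fold lower. Within the cells with Y-linked UMIs these were -0.12 and -0.19.

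In the ESC library 261 of 11054 kept cells (2.36%) reached the lowest score of the contractile-high cells, and 153 of them had 3 or more fibroblast UMIs. The other 108 ESCs had a median of only 4934 UMIs and no UMI of Actc1 or Tnnc2, with Acta1 at 167 CPM, Myl9 at 298 CPM and Pou5f1 at 43.1 CPM. Over all kept ESCs, Actc1 was at 0.240, Tnnc2 at 2.56, Acta1 at 2.78, Myl9 at 18.1 and Pou5f1 at 80.9 CPM. At levels this low, 0 UMIs of Actc1 and Tnnc2 in so few shallow cells cannot show that they were lower there.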

How the data were processed

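Single-cell RNA-seq of 2 libraries, serum/LIF ESCs (0 h) and 48h-EpiLCs, was made with the droplet 3′ v2 kit. The authors deposited unnormalised UMI counts per gene and barcode. The submitters' processing notes name Cell Ranger 3.0.2, Seurat 4 and the mm10 build, and the gene table includes tdTomato. Whether counting used strand, how reads shared by paralogs were treated and whether doublets or free RNA were removed is not given in the sources used here. The 48h-EpiLC library held 163771168 UMIs in 12427 barcodes and the ESC library 144584246 UMIs in 13184 barcodes.

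Barcodes were kept if they had 1000 or more genes and no more than 10% of UMIs from mitochondrial genes. UMIs were summed over the 94 contractile-high and 6189 score-0 cells and given as CPM. Genes with a mean of at least 5 CPM over both groups were compared by the log2 ratio of CPM + 1, and a value of 1 or more, or -1 or less, was called. Genes that passed this filter only through the contractile-high cells were set apart in the contractile list alone. Ratios in the text are of CPM without the added 1. Intervals are exact at 95% (Poisson for CPM, binomial for shares and ratios) and cover counting error only. With 1 library per stage no test was run. Cells were thinned to 5000 UMIs for shares at equal depth. Named genes were the 20 highest and 15 lowest by log2 ratio among genes of at least 50 CPM in the higher group and detected in at least 20% of its cells, with the same direction within cells with 2 or more Y-linked UMIs and against depth-matched score-0 cells. Score, Y-linked, mitochondrial and ribosomal protein genes and tdTomato were left out. The text also describes gene lists. Neighbours were found with scanpy 1.11.5 from 2000 variable genes and 30 components, without the 3 score genes. No doublet caller was run, and 9 of the 94 cells were among the 10% of kept cells with most UMIs. Python 3.11.15, numpy 2.4.6 and scipy 1.17.1 were used, and the scripts were tested on simulated data.

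The cells, gene lists and named-gene rule were chosen with earlier results of these data known. Alternatives changed the pseudocount, filters, scaling, weight of cells, score, threshold and comparison cells. Leaving out contractile-high cells with 3 or more fibroblast UMIs, or with under 5000 UMIs, was added after seeing the data. Some genes of the lists are counted but not reported by name here.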

Additional observations from a re-analysis of the deposited data

How the results depend on the processing

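Over 19 alternatives the median log2 ratio of the contractile list stayed between 1.48 and 2.75, that of the cytoskeleton list between 0.40 (score without Tagln) and 0.61, and that of the formative list between -0.74 and -0.36. The contractile values include Acta1, and Lmod1 where it passed, on both of which the main filter forces a difference. Without these 2 genes the median was 1.89 in the main comparison and 1.80 within cells with Y-linked UMIs. It was not computed without them for the other alternatives. The naïve list ranged from -0.22 without a filter to 0.56, so its direction was not stable. The counts of genes beyond 2-fold depended on the settings. Against 236 higher and 67 lower, they were 78 and 15 with a mean of at least 20 CPM, 634 and 390 with no filter, 429 and 197 for the highest 0.5% of cells, and 145 and 36 for the highest 2%. Without Tagln in the score 150 were higher, and 111 were lower with TMM scaling and 104 without the 10% deepest cells. The cause of these last shifts was not tested. Of the 20 named higher genes, 18 were at least 2-fold higher in all 19 alternatives. The exceptions were Ccn1 (0.99 on the log2 scale with the score without Tagln) and S100a6 (0.99 after thinning, 0.79 without the 2 cells with fibroblast UMIs). A change of the CPM filter cannot alter the ratio of a gene. The naming rule had also required the same direction in the Y-linked and depth-matched alternatives. The 19 alternatives are therefore not 19 separate checks of the named genes. Of the 15 named lower genes, 0 were 2-fold lower in every alternative. The share of contractile-high cells with Y-linked UMIs was 78.7% with a minimum of 1 UMI and 14.9% after thinning. The share of contractile-high cells among their own neighbours was 9.22% for the highest 0.5% of cells, 17.0% for the highest 2%, 7.30% without Tagln, 6.52% without the contractile, cytoskeleton and adhesion genes, and 13.6% for cells with at least 2000 genes. No paired analysis was possible because there was 1 library per stage. The 94 cells held 1497923 UMIs, so a gene without a UMI in them may still be at up to 2.00 CPM (3 UMIs).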
